A study of Mus musculus with 20 samples.

Results

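Bone morphogenetic proteins (BMPs) and growth and differentiation factors (GDFs) were followed in mouse plantaris tendon as 10 genes, taken by name from the count table of the study and all found there among 24885 genes. They were the ligand genes Gdf5, Gdf6, Gdf7, Gdf10, Bmp2, Bmp4 and Bmp6, the antagonist genes Grem1 and Nog, and the target gene Id1. All 10 passed the filter on low counts, as did 18918 genes in all. RNA sequencing had been done on 20 libraries in 5 groups of 4, to follow tendon growth with and without targeting of the IGF1 receptor gene in tenocytes, the fibroblasts of tendon.

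KO day 7 and KO day 14 tendons came from ScxCreERT2+/+ IGF1Rflox/flox mice that received tamoxifen and a growth stimulus for 7 or 14 days. WT day 7 and WT day 14 tendons came from ScxCreERT2-/- IGF1Rflox/flox mice with the same tamoxifen and growth stimulus. WT day 0 tendons came from ScxCreERT2-/- IGF1Rflox/flox mice with neither. CreERT2 is a recombinase that acts after tamoxifen, and here it is tied to Scx, a transcription factor gene of tenocytes, so cells that do not use Scx are not targeted. All 5 groups carry the floxed Igf1r alleles, and WT mice lack the recombinase, so recombinase and receptor targeting cannot be told apart. Tamoxifen and growth stimulus likewise cannot be told apart against WT day 0, and a KO day 0 group was not analysed here. The labels do not say what the growth stimulus was, nor the age of the mice.

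The depth was 32254411 to 63522834 counts per library, and levels are given as CPM, counts scaled to a common library size. Igf1r, counted over the whole gene, averaged 51.3 ± 2.81 CPM in KO day 7 and 49.1 ± 2.17 CPM in WT day 7 libraries, and 53.1 ± 4.996 CPM in KO day 14 and 45.3 ± 3.63 CPM in WT day 14 libraries (SD, n = 4 each). The log2 differences of 0.06 and 0.23 were not called (edgeR adjusted p = 0.646 and 0.162). The label KO thus went with no drop of Igf1r, and such a count mixes the floxed part with the rest of the gene. KO and WT therefore name labels throughout, for every direction given. Scx averaged 736 ± 281 CPM in KO day 7 and 50.5 ± 5.52 CPM in WT day 7 libraries, and 1249 ± 513 CPM in KO day 14 and 114 ± 30.7 CPM in WT day 14 libraries. The 7 markers of tenocytes were read in every group, with summed levels of 47287 to 57160 CPM in KO day 7 and 24297 to 30442 CPM in WT day 7 libraries, 63725 to 67999.7 CPM in KO day 14 and 30957 to 81717 CPM in WT day 14 libraries, and 19364 to 22652 CPM in WT day 0 libraries. Whether the 4 replicates of a group are separate animals is not stated in the labels, and the p-values reflect only library-to-library spread, possibly technical.

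BMP and GDF ligands are secreted dimers that bring together type I and type II receptor kinases on the cell surface. The type I receptors then phosphorylate Smad1, Smad5 and Smad9, which enter the nucleus with Smad4 and raise target genes such as the Id genes, while Smad6 and Smad7 hold the pathway back. Noggin and gremlin bind ligands outside the cell and keep them from their receptors. Gdf5, Gdf6 and Gdf7 are known from joint, tendon and ligament development, and Bmp2 and Bmp4 from bone and cartilage formation.

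RefSeq promoter windows, of 250 bases before to 50 bases after the annotated start in GRCm38.p6, were at hand for 5 of the 10 genes (Gdf7, Gdf10, Bmp4, Bmp6 and Grem1). Windows of 4 of them are printed because these genes moved in different directions in growing tendon: Bmp4 and Gdf10 fell, Grem1 was raised at day 7 and Gdf7 was raised at day 14. Capitals mark GGCGCC, a palindrome described as a binding sequence of BMP-activated Smads. Each is given 5′ to 3′ on the strand of its gene, at chr14:46390620-46390919 (minus strand) for Bmp4, chr14:33923337-33923636 (plus strand) for Gdf10, chr2:113758599-113758898 (minus strand) for Grem1 and chr12:8301905-8302204 (minus strand) for Gdf7.
Bmp4: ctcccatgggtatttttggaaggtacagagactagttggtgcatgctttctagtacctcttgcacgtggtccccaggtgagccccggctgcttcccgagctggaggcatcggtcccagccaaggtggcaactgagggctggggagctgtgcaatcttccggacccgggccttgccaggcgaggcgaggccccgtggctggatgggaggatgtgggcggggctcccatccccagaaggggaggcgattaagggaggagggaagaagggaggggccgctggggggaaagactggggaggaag
Gdf10: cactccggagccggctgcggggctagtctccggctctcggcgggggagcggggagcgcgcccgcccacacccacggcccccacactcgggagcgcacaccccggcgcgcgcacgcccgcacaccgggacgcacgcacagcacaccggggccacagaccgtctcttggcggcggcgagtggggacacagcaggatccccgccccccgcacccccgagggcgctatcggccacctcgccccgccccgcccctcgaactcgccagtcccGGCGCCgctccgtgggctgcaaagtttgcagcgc
Grem1: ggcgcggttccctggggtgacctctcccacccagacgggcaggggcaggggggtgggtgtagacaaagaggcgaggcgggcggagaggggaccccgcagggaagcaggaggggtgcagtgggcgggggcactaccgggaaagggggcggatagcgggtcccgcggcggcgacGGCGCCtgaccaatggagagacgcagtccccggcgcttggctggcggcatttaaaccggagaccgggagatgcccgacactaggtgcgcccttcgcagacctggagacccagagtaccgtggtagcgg
Gdf7: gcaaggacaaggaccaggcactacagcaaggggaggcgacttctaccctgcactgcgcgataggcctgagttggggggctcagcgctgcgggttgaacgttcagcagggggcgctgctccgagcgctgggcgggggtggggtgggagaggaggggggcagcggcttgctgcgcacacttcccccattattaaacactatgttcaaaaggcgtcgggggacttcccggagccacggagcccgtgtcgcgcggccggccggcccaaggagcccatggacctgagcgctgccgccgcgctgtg
GGCGCC was found once in the Gdf10 window, with its first base at position 16, and once in the Grem1 window, at position -78, both counted from the annotated start as 0. The letters GGCGCC were in none of the Gdf7, Bmp4 and Bmp6 windows. Of all 32851 mouse promoter windows of this length, 11.9% held GGCGCC. The shorter Smad motif CAGAC, searched on both strands, was found 1 time in the Gdf10 window, 1 time in the Bmp6 window, 2 times in the Grem1 window and in neither the Gdf7 nor the Bmp4 window, against 49.6% of all windows. A match describes letters and is not a shown binding site. The Bmp6 window starts from a RefSeq start 609 bases from the GENCODE start of the gene.

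In WT tendon 7 days into the growth stimulus, 5 of the 7 ligand genes, Nog and Id1 were lower than in WT day 0 tendon, while Gdf6 and Grem1 were higher and Gdf7 was not called. The falls ranged from 3.72-fold for Gdf10 to 7.67-fold for Nog. In all, 9 of the 10 genes were called (edgeR's quasi-likelihood test, Benjamini-Hochberg adjusted over all genes, threshold 0.05), 2 higher and 7 lower. This contrast moved much of the transcriptome: 64.1% of tested genes were called, 32.3% higher and 31.8% lower. The libraries of the 2 days did not overlap for these 9 genes, as for 60.6% of all tested genes (30.4% higher, 30.2% lower). The median log2 change of the 10 genes was -2.16 beside 0.02 over all genes tested. In bulk tendon, fewer cells of a type and less RNA per cell cannot be told apart.

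Bmp2 (ENSMUSG00000027358, chr2:133552159-133562885, plus strand, GRCm38), a ligand that starts bone and cartilage formation, had 84.0, 106, 66.5 and 74.1 CPM in the WT day 0 libraries, 6.32, 11.2, 12.3 and 13.8 CPM at WT day 7, and 7.26, 7.20, 11.0 and 9.52 CPM at WT day 14. Every growing library lay far below every day 0 library, and days 7 and 14 overlapped. Its log2 change was -2.92 ± 0.27 (SE) at day 7 against day 0 (edgeR adjusted p = 4.52e-08), a 7.58-fold fall, and -3.24 ± 0.28 at day 14 against day 0 (edgeR adjusted p = 3.58e-08).

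Bmp4 (ENSMUSG00000021835, chr14:46383520-46390669, minus strand), a close relative of Bmp2 with roles in mesoderm and skeletal development, had 40.9, 57.3, 41.4 and 34.8 CPM at WT day 0, 6.51, 6.69, 10.2 and 8.19 CPM at WT day 7, and 8.01, 9.59, 9.07 and 12.6 CPM at WT day 14. The day 0 libraries again stood apart from all others. The log2 change was -2.47 ± 0.24 at day 7 and -2.15 ± 0.24 at day 14, both against day 0 (edgeR adjusted p = 4.8e-08 and 4.68e-07).

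Bmp6 (ENSMUSG00000039004, chr13:38345107-38500302, plus strand), the ligand best known for iron regulation in liver, had 10.6, 13.1, 14.6 and 19.0 CPM at WT day 0, 2.45, 2.93, 3.08 and 2.59 CPM at WT day 7, and 2.85, 3.63, 4.23 and 5.54 CPM at WT day 14. Day 0 did not overlap with either later day, and the lowest day 14 library lay inside the day 7 range. This gave a log2 change of -2.38 ± 0.19 at day 7 and -1.82 ± 0.19 at day 14 against day 0 (edgeR adjusted p = 2.93e-09 and 1.45e-07). Bmp6 shares 224 exon bases with Txndc5 on the opposite strand, and the strand setting of the counting is not given. Txndc5 was higher at day 7 by 1.27 on the log2 scale (edgeR adjusted p = 1.75e-10), opposite to Bmp6. Its level was far above that of Bmp6, with a mean of 451 CPM over all libraries before TMM scaling. Whether Txndc5 reads enter the Bmp6 counts was not tested.

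Gdf10 (ENSMUSG00000021943, chr14:33923587-33937983, plus strand), also called BMP3B, is a divergent member of the family. It had 85.4, 104, 111 and 91.8 CPM at WT day 0, 10.6, 20.4, 42.1 and 32.2 CPM at WT day 7, and 17.9, 22.6, 25.2 and 24.3 CPM at WT day 14. The day 7 libraries spread to both sides of the day 14 range, and no later library reached day 0. The fitted log2 change was -1.90 ± 0.40 at day 7 and -2.12 ± 0.40 at day 14 against day 0 (edgeR adjusted p = 0.000563 and 0.000328).

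Gdf5 (ENSMUSG00000038259, chr2:155941023-155945367, minus strand), which marks the cells that form joints, had 8.59, 11.6, 10.3 and 8.91 CPM at WT day 0, 1.63, 1.71, 1.87 and 2.11 CPM at WT day 7, and 3.21, 2.23, 3.49 and 2.19 CPM at WT day 14. The 3 days did not overlap: day 7 was lowest and day 14 stayed well under day 0. Its log2 change came to -2.43 ± 0.20 at day 7 and -1.83 ± 0.20 at day 14 against day 0 (edgeR adjusted p = 4.29e-09 and 2.55e-07). Gdf5 shares 936 exon bases with Gm15557 on the opposite strand, a gene not analysed here.

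Gdf6 (ENSMUSG00000051279, chr4:9844372-9862345, plus strand), a close relative of Gdf5, moved the other way. It had 0.428, 0.569, 0.604 and 0.602 CPM at WT day 0, 1.43, 2.44, 2.76 and 3.63 CPM at WT day 7, and 1.67, 1.69, 3.12 and 4.86 CPM at WT day 14. Both later days lay above day 0 in every library and overlapped each other. Gdf6 rose by 2.20 ± 0.35 on the log2 scale at day 7 (4.60-fold, edgeR adjusted p = 1.66e-05) and by 2.34 ± 0.35 at day 14 (5.07-fold, edgeR adjusted p = 1.41e-05), against day 0.

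Gdf7 (ENSMUSG00000037660, chr12:8297918-8301954, minus strand), the third of this subgroup, was barely read at first. Its counts were 5, 1, 6 and 0 at WT day 0, 4, 3, 6 and 5 at WT day 7, and 12, 34, 18 and 19 at WT day 14, or 0.290 to 0.611 CPM at day 14. Days 0 and 7 overlapped, and all 4 day 14 libraries lay above both. The log2 change was 0.17 ± 0.81 at day 7 against day 0 (edgeR adjusted p = 0.865), 2.72 ± 0.69 at day 14 against day 0 (edgeR adjusted p = 0.00267) and 2.55 ± 0.65 at day 14 against day 7 (edgeR adjusted p = 0.00582).

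Of the antagonists, Grem1 (gremlin 1, ENSMUSG00000074934, chr2:113746164-113758646, minus strand) had 1.22, 1.01, 0.708 and 1.11 CPM at WT day 0, 5.28, 3.64, 2.63 and 3.23 CPM at WT day 7, and 1.38, 2.03, 1.29 and 1.74 CPM at WT day 14. All day 7 libraries exceeded all others, and day 14 lay just above day 0 without overlap. Grem1 rose by 1.88 ± 0.44 on the log2 scale at day 7 against day 0 (3.68-fold, edgeR adjusted p = 0.00109). At day 14 against day 0 the log2 change was 0.68 ± 0.45 (edgeR adjusted p = 0.21), and it was called when only the groups compared were fitted (adjusted p = 0.0378).

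Nog (noggin, ENSMUSG00000048616, chr11:89300638-89302332, minus strand) had 1.83, 1.77, 1.77 and 1.90 CPM at WT day 0, 0.173, 0.305, 0.0707 and 0.399 CPM at WT day 7, and 0.965, 0.233, 0.371 and 1.64 CPM at WT day 14. The day 0 libraries were nearly alike, and the later ones scattered below them. This gave a log2 change of -2.94 ± 0.53 at day 7 against day 0 (edgeR adjusted p = 7.06e-05) and -1.20 ± 0.48 at day 14 against day 0 (edgeR adjusted p = 0.042). The day 14 call was lost without any 1 of WT day 0 replicates 1, 2, 3 and 4, KO day 7 replicates 1 and 3, and WT day 14 replicates 1, 2 and 3, with adjusted p from 0.0508 to 0.124. It was also lost in edgeR with no filter on low counts (adjusted p = 0.0511) and with only the groups compared (adjusted p = 0.0603).

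Id1 (ENSMUSG00000042745, chr2:152736251-152737410, plus strand), an inhibitor of helix-loop-helix transcription factors and a direct target of BMP Smads, had 94.6, 82.0, 55.3 and 54.9 CPM at WT day 0, 18.9, 19.9, 18.2 and 17.9 CPM at WT day 7, and 26.5, 26.4, 26.5 and 30.8 CPM at WT day 14. The 3 days did not overlap, with day 7 lowest. The fitted log2 change was -1.94 ± 0.20 at day 7 and -1.38 ± 0.20 at day 14, both against day 0 (edgeR adjusted p = 1.57e-07 and 1.34e-05).

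**Figure D1:**
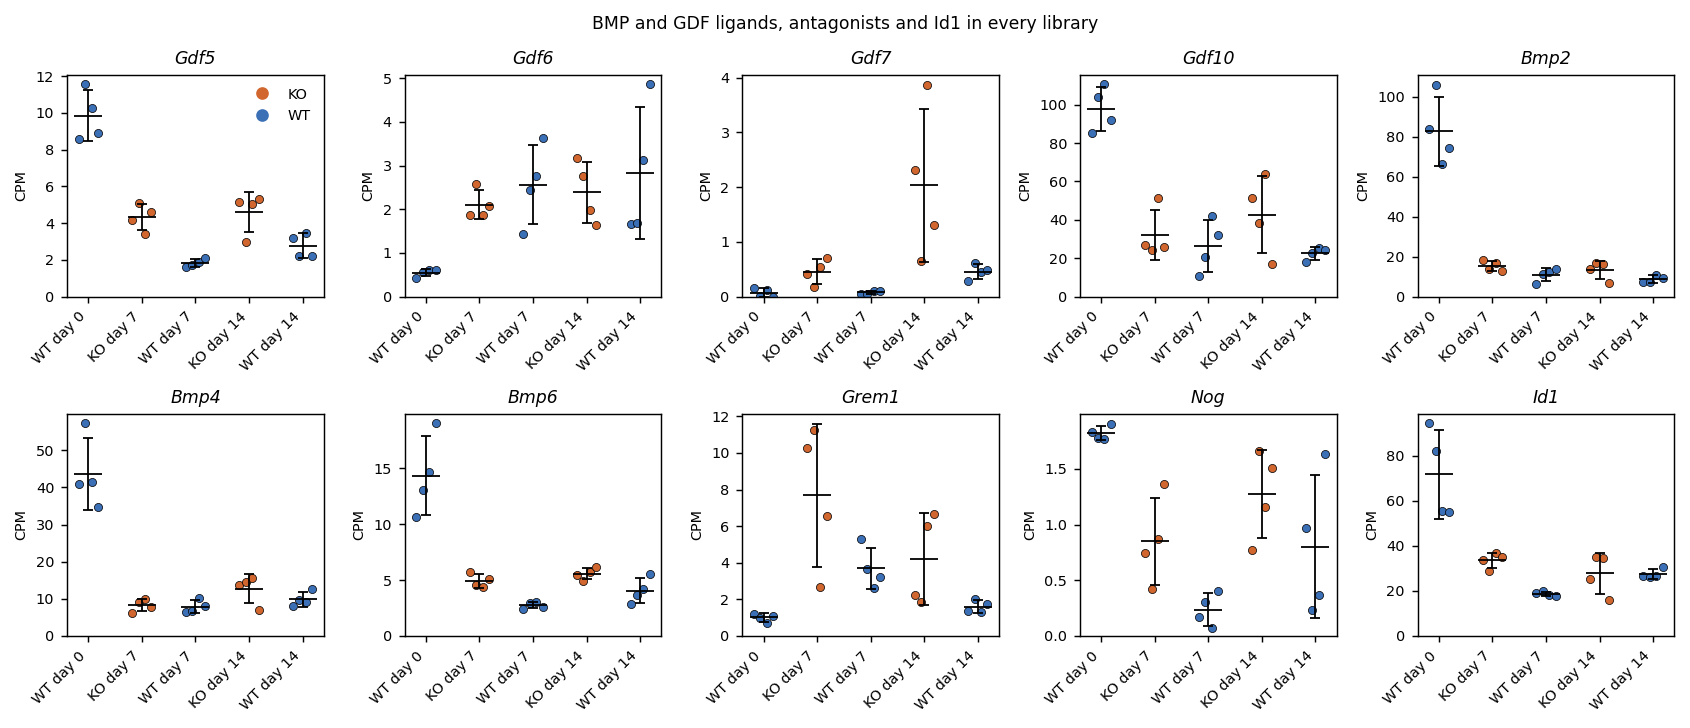
CPM of each of the 10 genes in every library (points), with the group mean and SD (bars, n = 4), for WT day 0 and for KO and WT at days 7 and 14; each panel has its own linear axis from 0. Bmp2 sits at 66.5 to 106 CPM in WT day 0 and at or below 18.2 CPM in all other libraries, while Gdf6 is lowest in WT day 0.

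**Figure D2:**
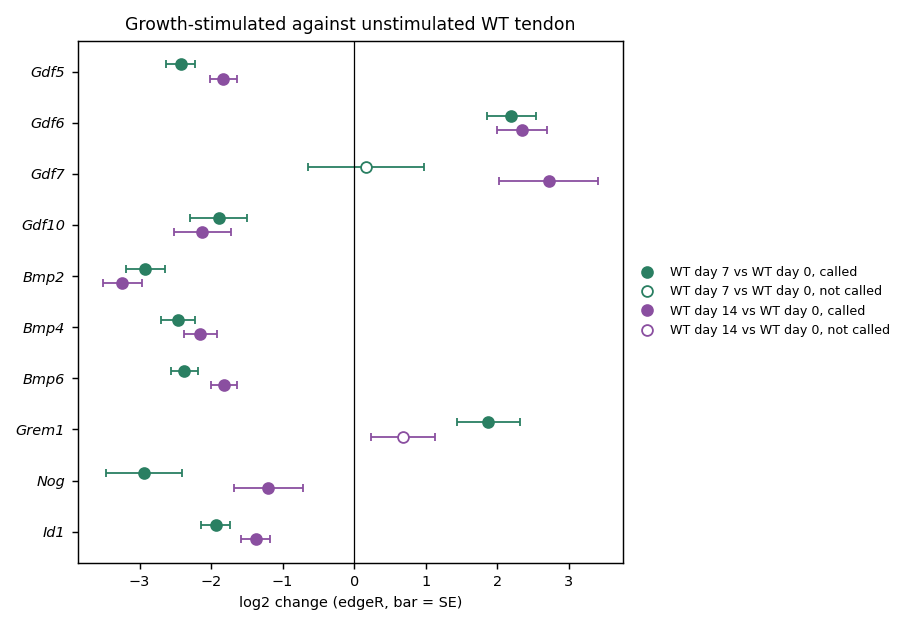
Log2 changes of the 10 genes in WT day 7 and WT day 14 tendon against WT day 0 tendon, with SE bars; filled points passed the adjusted p threshold of 0.05 and open points did not. Gdf6, Gdf7 and Grem1 lie to the right of 0 on both days, Gdf6 called on both, Gdf7 called at day 14 and Grem1 called at day 7, and the other 7 genes lie to the left.

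At 14 days, 9 of the 10 genes were again called against WT day 0, with 54.3% of all tested genes called, 28% higher and 26.2% lower. All 10 genes had no overlap with day 0, 3 higher and 7 lower, as had 46.1% of all tested genes, 23.2% higher and 23% lower. Gdf6 and Gdf7 were higher, Grem1 was not called, and the same 7 genes as at day 7 were lower. Both comparisons share the WT day 0 libraries, so they are not independent. The muscle fibre list of 12 markers (Acta1, Ckm and others) moved with these contrasts: its summed level was 24063 to 61755 CPM in WT day 0, 182 to 1450 CPM in WT day 7 and 2532 to 20789 CPM in WT day 14 libraries, and 11 of 12 markers were lower at day 7 against day 0. With a muscle score per library as a covariate, 7 of the 10 genes were called at day 7 against day 0. The log2 change of Nog was then -0.83 (edgeR adjusted p = 0.454), and that of Grem1 was 1.63 (edgeR adjusted p = 0.132). At day 14 against day 0 the covariate left Nog at -0.60 (edgeR adjusted p = 0.283). All 5 adipocyte markers were also lower at day 7 against day 0, and all 6 macrophage markers were higher. Summed chondrocyte markers had 10948 to 15820 CPM in WT day 0, 1241 to 1652 CPM in WT day 7 and 2869 to 4316 CPM in WT day 14 libraries, with 3 of 7 lower and 3 higher at day 7 against day 0. Summed osteoblast markers had 135 to 348 CPM in WT day 0, 7.30 to 10.04 CPM in WT day 7 and 12.3 to 170 CPM in WT day 14 libraries, with 2 of 4 lower at day 7. Lower at day 7 were also 5 of 5 Schwann cell and nerve markers, 4 of 6 paratenon and progenitor fibroblast markers, 3 of 6 endothelial markers and 3 of 5 keratinocyte markers. The muscle score, the centred mean log2 CPM of the 12 muscle markers, ran from 1.60 to 3.09 in WT day 0 libraries. In WT day 7 libraries it ran from -5.14 to -2.16. The covariate thus moved with day at day 7 against day 0 and cannot separate muscle content from day there. What part any of these cell types has in the values was not tested.

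Levels of different genes were compared as CPM per kilobase of exon. In WT day 0 tendon, Bmp2 (23.2 ± 4.82), Bmp4 (19.4 ± 4.27) and Gdf10 (18.8 ± 2.20) led the ligands, with overlapping libraries, and Gdf5 (4.24 ± 0.59) and Bmp6 (3.68 ± 0.91) followed. Gdf6 (0.156 ± 0.024) and Gdf7 (0.052 ± 0.054) were at the bottom. In WT day 14 tendon, Bmp4 (4.37 ± 0.88) and Gdf10 (4.32 ± 0.63) were level, ahead of Bmp2 (2.46 ± 0.52), and Gdf6 (0.802 ± 0.428) no longer differed beyond its spread from Bmp6 (1.04 ± 0.29).

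Summed over the 7 ligands, the level per kilobase was 69.6 ± 9.60 CPM in WT day 0, 13.9 ± 4.45 CPM in WT day 7 and 14.5 ± 2.33 CPM in WT day 14 tendon (SD, n = 4 each). The KO sums were 18.2 ± 2.91 CPM at day 7 and 23.2 ± 7.23 CPM at day 14. WT day 0 ranged from 62.8 to 83.8 CPM and stood above every growing library, while KO and WT overlapped on both days. The makeup shifted as well: Gdf6 made up 0.227% of the ligand sum at WT day 0, 5.22% at WT day 7 and 5.30% at WT day 14, and Bmp2 33.3%, 22.3% and 16.9% on the same days. Per 100 of ligand level, Grem1 and Nog together had 1.92 ± 0.31 at WT day 0, 8.67 ± 5.42 at WT day 7 and 5.94 ± 2.30 at WT day 14, with no overlap between day 0 and either later day. Per kilobase, Grem1 itself had 0.244, 0.891 and 0.387 CPM and Nog 1.07, 0.140 and 0.473 CPM at WT days 0, 7 and 14. The ratio thus changed together with a lower ligand sum, and Nog was lower on both later days.

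**Figure D3:**
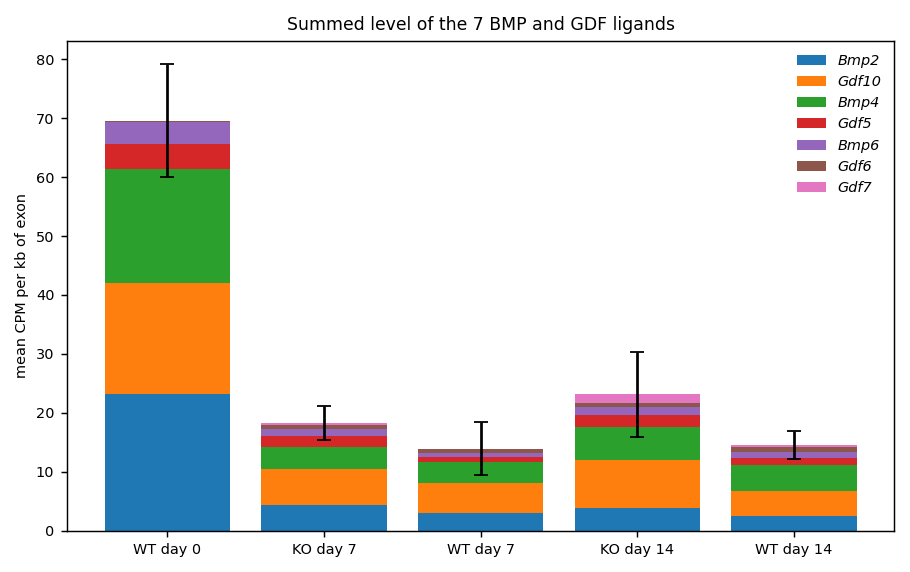
Mean level of the 7 ligand genes in CPM per kilobase of exon, stacked by gene, in WT day 0 and in KO and WT tendon at days 7 and 14; error bars are the SD of the summed level over 4 libraries. The stack stands at 69.6 CPM per kilobase in WT day 0 and between 13.9 and 23.2 in the other groups.

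Between day 7 and day 14 in WT tendon, 6 of the 10 genes were called, with 30.4% of all tested genes called, 16% higher and 14.3% lower. Gdf5 (log2 change 0.60 ± 0.20), Gdf7 (2.55 ± 0.65), Bmp6 (0.55 ± 0.19), Nog (1.74 ± 0.53) and Id1 (0.56 ± 0.20) were higher at day 14, and Grem1 (-1.20 ± 0.42) was lower, with edgeR adjusted p from 0.00582 to 0.041. In this comparison the day 14 values of Gdf5, Gdf7 and Id1 lay above and those of Grem1 below all day 7 values, and those of Bmp6 and Nog overlapped with day 7. Of all tested genes, 25.6% had no overlap between these days, 12.9% higher and 12.7% lower.

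Of these 6 calls, 5 were lost when single libraries were left out. The count of called genes was 2 or 3 without WT day 7 replicate 1, 2 or 4, or WT day 14 replicate 1, 3 or 4, each left out in turn. Gdf7 kept its call in all of these. Gdf5 was lost without WT day 7 replicate 1 or 2 or WT day 14 replicate 1 or 3 (adjusted p 0.0603 to 0.0988). Bmp6 was lost without WT day 7 replicate 1 or 4 or WT day 14 replicate 3 or 4 (adjusted p 0.0618 to 0.129). Grem1 was lost without WT day 7 replicate 1, 2 or 4 or WT day 14 replicate 1, 3 or 4 (adjusted p 0.0559 to 0.11). Nog was lost without WT day 7 replicate 3 or WT day 14 replicate 4 (adjusted p 0.0586 to 0.109), and Id1 without any 1 of the 8 WT day 7 and WT day 14 libraries (adjusted p 0.0589 to 0.0982). With the muscle score as a covariate, Gdf7 alone was called. The log2 change was then 0.77 for Gdf5, 0.80 for Id1, 0.49 for Bmp6, -1.04 for Grem1 and 0.24 for Nog. Their edgeR adjusted p ran from 0.0709 to 0.858. The score ran from -5.14 to -2.16 in WT day 7 and from -0.995 to 1.71 in WT day 14 libraries, so it cannot be told apart from day. At day 14 against day 7, 11 of the 12 muscle fibre markers were higher. So were 7 of 7 tenocyte markers and 5 of 7 chondrocyte markers, and 6 of 6 macrophage markers were lower, and their part in the values was not tested.

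In KO tendon at day 7, 5 of the 10 genes were higher than in WT tendon at day 7 and none was lower: the ligands Gdf5, Gdf7 and Bmp6, the antagonist Nog and the target Id1. The increases ranged from 1.79-fold for Bmp6 and Id1 to 5.93-fold for Gdf7. Of all tested genes 14.8% were called, 9.39% as higher in KO and 5.42% as lower. These 5 were also the only ones of the 10 without overlap, beside 24.4% of all tested genes, 14% higher and 10.3% lower. The median log2 change was 0.84 over the 10 genes and -0.01 over all genes tested. All 5 genes had also been lower, or for Gdf7 not called, in WT day 7 against WT day 0, a comparison that shares the WT day 7 libraries.

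Gdf5 had 4.17, 5.07, 3.40 and 4.61 CPM in the KO day 7 libraries, against 1.63, 1.71, 1.87 and 2.11 CPM in the WT day 7 libraries. The groups did not overlap, and the lowest KO library was well above the highest WT library. Gdf5 was higher by 1.23 ± 0.20 on the log2 scale (2.35-fold, edgeR adjusted p = 0.000539). This call held in all 29 alternatives, with adjusted p from 8.32e-08 to 0.00524.

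Gdf7 had 27, 7, 29 and 42 counts in the KO day 7 libraries, against 4, 3, 6 and 5 counts in the WT day 7 libraries, or 0.174 to 0.706 CPM against 0.0508 to 0.106 CPM. The groups did not overlap, although KO replicate 2 came close to WT. Its log2 change came to 2.57 ± 0.64 (edgeR adjusted p = 0.0128). Bmp6 had 5.71, 4.55, 4.36 and 5.13 CPM in KO, against 2.45, 2.93, 3.08 and 2.59 CPM in WT day 7 libraries. Again no KO library reached down to WT, and the log2 change was 0.84 ± 0.18 (edgeR adjusted p = 0.0061). Txndc5, which overlaps Bmp6, was not called (log2 change 0.09, edgeR adjusted p = 0.479).

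Nog had 0.744, 0.422, 0.873 and 1.36 CPM in the KO day 7 libraries, against 0.173, 0.305, 0.0707 and 0.399 CPM in the WT day 7 libraries. The lowest KO library lay just above the highest WT library. The log2 change was 1.86 ± 0.52 (3.62-fold, edgeR adjusted p = 0.024). The call was lost without WT day 7 replicate 1 (adjusted p = 0.0619), WT day 7 replicate 3 (adjusted p = 0.0653) or KO day 7 replicate 4 (adjusted p = 0.0895), with log2 changes of 1.73, 1.57 and 1.54.

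Id1 had 33.5, 28.8, 36.7 and 35.0 CPM in the KO day 7 libraries, against 18.9, 19.9, 18.2 and 17.9 CPM in the WT day 7 libraries. Replicates were tight in both groups, which stood well apart. This gave a log2 change of 0.84 ± 0.20 (edgeR adjusted p = 0.0103), and the call held in all 29 alternatives, with adjusted p from 0.000498 to 0.0301.

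The other 5 genes were not called at day 7. Grem1 had 10.3, 11.3, 2.69 and 6.54 CPM in the KO day 7 libraries, against 5.28, 3.64, 2.63 and 3.23 CPM in the WT day 7 libraries. KO replicate 3 lay within the WT range and the other KO libraries above it. The fitted log2 change was 1.05 ± 0.41 (95% interval 0.20 to 1.91, edgeR adjusted p = 0.0884), and without KO day 7 replicate 3 it was 1.34 (adjusted p = 0.0258). DESeq2 called it as well (adjusted p = 0.0426). Bmp2 had 12.8 to 18.2 CPM in KO, against 6.32 to 13.8 CPM in WT, with a log2 change of 0.50 (95% interval -0.04 to 1.04). Gdf10 had 24.5 to 51.6 CPM in KO and 10.6 to 42.1 CPM in WT (log2 change 0.29, 95% interval -0.54 to 1.11). For Bmp4 the log2 change was 0.07 (95% interval -0.41 to 0.55) and for Gdf6 -0.28 (95% interval -0.94 to 0.37), with wide overlap of the libraries.

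Markers of other cells moved with this comparison. The 12 muscle fibre markers summed to 4536.5 to 11294.5 CPM in KO day 7 and 182 to 1450 CPM in WT day 7 libraries, and 10 of 12 were higher in KO. Of 7 chondrocyte markers 4 were higher, with sums of 2844 to 4043 CPM in KO day 7 and 1241 to 1652 CPM in WT day 7 libraries. Of 4 tested osteoblast markers 1 was higher, and the 5 listed markers summed to 23.7 to 106 CPM in KO day 7 and 7.30 to 10.04 CPM in WT day 7 libraries. None of the markers of these lists was at 0 in either group. No macrophage (6), adipocyte (5) or endothelial (6) marker was called, and 3 of 7 tenocyte markers, 2 of 6 markers of paratenon and progenitor fibroblasts and 1 of 5 Schwann cell and nerve markers were higher in KO. The 7 tenocyte markers include Scx, to which the recombinase is tied, with 557 to 1153 CPM in KO day 7 and 44.8 to 57.1 CPM in WT day 7 libraries. With the muscle score as a covariate, Gdf5 (log2 change 1.37), Gdf7 (3.48) and Id1 (1.04) were still called as higher in KO. Nog (0.71, edgeR adjusted p = 0.486) and Bmp6 (0.78, edgeR adjusted p = 0.0795) were not. The score ran from -0.757 to 0.422 in KO day 7 and from -5.14 to -2.16 in WT day 7 libraries. It therefore cannot be told apart from the label KO in this comparison. The 5 keratinocyte markers summed to 749 CPM in KO day 7 replicate 2 and to 3.91 to 13.8 CPM in the other KO day 7 libraries. Without that library the same 5 genes were called, with log2 changes of 1.16 for Gdf5, 2.83 for Gdf7, 0.89 for Bmp6, 2.08 for Nog and 0.92 for Id1.

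**Figure D4:**
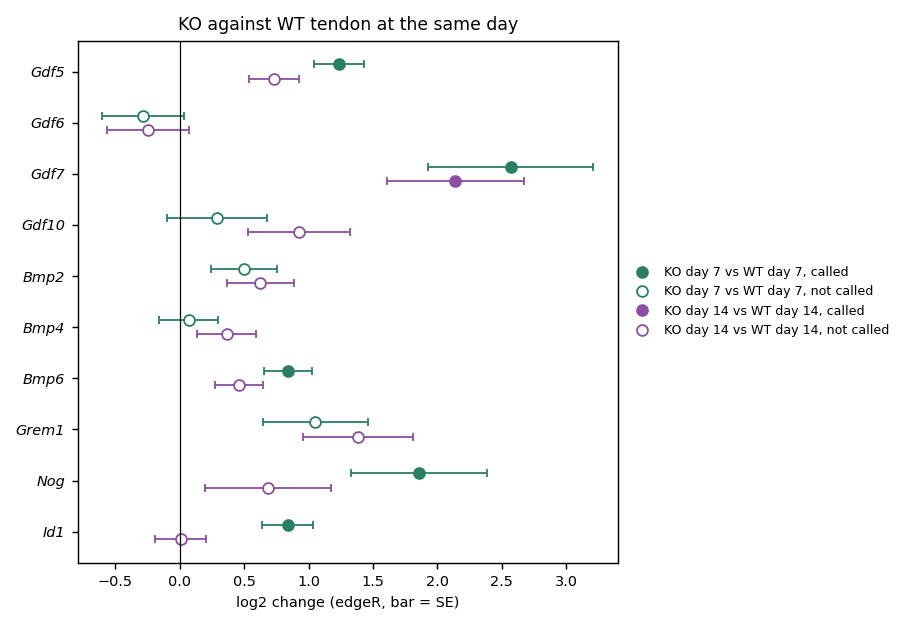
Log2 changes of the 10 genes in KO against WT tendon at day 7 and at day 14, with SE bars; filled points passed the adjusted p threshold of 0.05 and open points did not. At day 7 Gdf5, Gdf7, Bmp6, Nog and Id1 are filled and lie to the right of 0, and at day 14 Gdf7 alone is filled.

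At day 14, Gdf7 was the only one of the 10 genes called between KO and WT tendon, with 1.78% of all tested genes called, 1.06% higher and 0.719% lower. It was also the only one without overlap, beside 6.13% of all tested genes, 2.99% higher and 3.14% lower. It had 78, 22, 130 and 51 counts in the KO day 14 libraries, against 12, 34, 18 and 19 counts in the WT day 14 libraries, or 2.31, 0.652, 3.86 and 1.30 CPM against 0.290, 0.611, 0.445 and 0.478 CPM. KO replicate 2 lay barely above the highest WT library in CPM, and the other KO libraries well above it. Its log2 change came to 2.14 ± 0.53 (4.401-fold, edgeR adjusted p = 0.0457). The call was lost when any 1 of 12 libraries was left out, with adjusted p from 0.0501 to 0.176 and log2 changes from 1.63 to 2.32. These were WT day 0 replicates 1 and 3, WT day 7 replicates 2, 3 and 4, KO day 7 replicates 3 and 4, WT day 14 replicates 1, 2 and 3, and KO day 14 replicates 1 and 3. The call was also lost with no filter on low counts (adjusted p = 0.0505), with limma-voom (adjusted p = 0.089) and with only the groups compared (adjusted p = 0.134). None of the 12 muscle fibre markers was called between KO and WT at day 14. Their sums spread widely within both groups, from 1417 to 23692 CPM in KO day 14 and from 2532 to 20789 CPM in WT day 14 libraries. The lack of calls therefore does not show equal muscle content. Of the other markers, 1 of 7 tenocyte and 1 of 6 paratenon and progenitor fibroblast markers were higher in KO. The 7 tenocyte markers include Scx, the gene to which the recombinase is tied. Scx had 860 to 1958 CPM in KO day 14 and 70.3 to 142 CPM in WT day 14 libraries. Summed chondrocyte markers had 4565 to 5857 CPM in KO day 14 and 2869 to 4316 CPM in WT day 14 libraries, with none of 7 called. Summed paratenon and progenitor fibroblast markers had 3752 to 5669 CPM in KO day 14 and 2429 to 3142 CPM in WT day 14 libraries. Their part in the values was not tested.

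Gdf5 had 5.13, 2.99, 5.02 and 5.33 CPM in the KO day 14 libraries, against 3.21, 2.23, 3.49 and 2.19 CPM in the WT day 14 libraries. KO replicate 2 fell among the WT values, and the other 3 KO libraries lay above all of them. The log2 change was 0.74 ± 0.19 (95% interval 0.33 to 1.14, edgeR adjusted p = 0.0587), and without KO day 14 replicate 2 it was 0.90 (adjusted p = 0.016). DESeq2 called it with all libraries (adjusted p = 0.0106). Grem1 had 2.22, 1.87, 6.03 and 6.68 CPM in the KO day 14 libraries, against 1.38, 2.03, 1.29 and 1.74 CPM in the WT day 14 libraries. The KO libraries fell apart into a low and a high pair, the low pair overlapping with WT. This gave a log2 change of 1.38 ± 0.43 (edgeR adjusted p = 0.112), and DESeq2 called it (adjusted p = 0.0227).

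For Bmp6 the KO day 14 libraries had 5.48, 4.95, 5.76 and 6.14 CPM, against 2.85, 3.63, 4.23 and 5.54 CPM in the WT day 14 libraries. They overlapped through WT replicate 4, without which the log2 change of 0.46 ± 0.18 (edgeR adjusted p = 0.21) was 0.65 (adjusted p = 0.0319). Id1 had 25.1, 35.1, 34.6 and 16.04 CPM in the KO day 14 libraries, against 26.5, 26.4, 26.5 and 30.8 CPM in the WT day 14 libraries. The KO values spread on both sides of WT, with a log2 change of 0.01 (95% interval -0.41 to 0.42, edgeR adjusted p = 0.989). Nog had 0.771 to 1.66 CPM in KO and 0.233 to 1.64 CPM in WT libraries, with a log2 change of 0.69 (95% interval -0.34 to 1.71).

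Gdf10, Bmp2 and Bmp4 shared 1 low library in the KO day 14 group. In Gdf10 the KO day 14 libraries had 51.3, 38.2, 64.03 and 17.2 CPM, against 17.9 to 25.2 CPM in WT day 14. Bmp2 had 13.6, 17.0, 16.4 and 7.06 CPM in KO, against 7.20 to 11.0 CPM in WT, and Bmp4 had 13.6, 14.5, 15.6 and 6.94 CPM in KO, against 8.01 to 12.6 CPM in WT. KO replicate 4 was below all WT libraries in each, and the other 3 KO libraries were above all of them. The log2 changes were 0.92 (edgeR adjusted p = 0.248), 0.63 (edgeR adjusted p = 0.231) and 0.36 (edgeR adjusted p = 0.451), and without KO replicate 4 they were 1.19, 0.84 and 0.57, none called. This library was the lowest of its group in 5 of the 10 genes (Gdf6, Gdf10, Bmp2, Bmp4 and Id1) and the highest in 3 (Gdf5, Bmp6 and Grem1). It also had the highest muscle marker sum of the group, 23692 CPM against 1417 to 14576 CPM. Its Scx level was the highest as well, 1958 CPM against 860 to 1294 CPM. What part muscle content or Scx has in these values was not tested. Gdf6 had 1.63 to 3.17 CPM in KO and 1.67 to 4.86 CPM in WT day 14 libraries (log2 change -0.24, 95% interval -0.91 to 0.42).

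Within KO tendon, Gdf7 was higher at day 14 than at day 7 by 2.12 ± 0.53 on the log2 scale (edgeR adjusted p = 0.0103) and was the only 1 of the 10 genes called, with 15.7% of all tested genes called, 7.09% higher and 8.57% lower. None of the 10 was without overlap, beside 20.6% of all tested genes, 9.39% higher and 11.3% lower. Its day 14 range of 0.652 to 3.86 CPM overlapped with the day 7 range of 0.174 to 0.706 CPM, and without KO day 14 replicate 3 the log2 change was 1.60 (adjusted p = 0.0568). Bmp4 had a log2 change of 0.61 (edgeR adjusted p = 0.0796), which was 0.81 without KO day 14 replicate 4 (adjusted p = 0.00929). Grem1 had -0.87 (edgeR adjusted p = 0.162), which was called without KO day 7 replicate 3 (adjusted p = 0.0457).

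The KO effect itself was tested for a difference between the days. None of the 10 genes was called in that test by edgeR, DESeq2 or limma-voom, and 0% of all genes were called by edgeR, with 2039 genes at an unadjusted p below 0.05. Id1 was the 1 gene of the 10 at an unadjusted p below 0.05, with a KO effect lower at day 14 than at day 7 by a log2 difference of -0.83 ± 0.28 (edgeR adjusted p = 0.297). The differences for Nog (-1.17, 95% interval -2.66 to 0.32), Gdf5 (-0.50, 95% interval -1.07 to 0.07) and Gdf7 (-0.43, 95% interval -2.07 to 1.21) were not called. Calls at day 7 that are missing at day 14 are therefore not shown to differ between the days.

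A list of 59 other genes of the BMP pathway was read alongside, of which 56 were in the count table and 52 were tested. In WT day 7 against WT day 0 tendon, 9 were higher and 35 lower, with a median log2 change of -0.95, beside 32.3% of all tested genes higher, 31.8% lower and a median of 0.02. Of the 7 other ligands tested, 5 were lower and 1 higher: Bmp7 averaged 0.131 ± 0.080 CPM in WT day 7 and 3.75 ± 0.86 CPM in WT day 0 tendon, while Gdf3, a ligand of early embryos, averaged 3.02 ± 1.27 and 0.0351 ± 0.0204 CPM (log2 change 6.24 ± 0.89). Among 8 other target genes 7 were lower and none higher, led by Msx1 (log2 change -2.14), Id2 (-0.92) and Atoh8 (-1.70).

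Among the 8 Smads and Smad ubiquitin ligases 5 were lower in WT day 7 against WT day 0 tendon and none higher, beside 64.1% of all tested genes called. The inhibitory Smad6 (log2 change -1.93) and Smad7 (-0.87) and the receptor-regulated Smad9 (-1.79) had the smallest p. Type I receptors were lower in 3 of 4 genes, Bmpr1b (-1.09), Acvrl1 (-0.45) and Bmpr1a (-0.22). Of the type II receptors, Acvr2a was higher (0.51), and Acvr2b (-1.37) and Bmpr2 (-0.23) were lower. The 16 other secreted antagonists and modulators split into 6 higher and 9 lower: Fstl1, a follistatin-like secreted protein, averaged 3602 ± 311 CPM in WT day 7 and 905 ± 52.0 CPM in WT day 0 tendon, whereas chordin (Chrd, -1.47), which binds BMPs as noggin does, and Crim1 (-1.73) fell. At WT day 14 against day 0, 13 of the 52 genes were higher and 26 lower, beside 28% and 26.2% of all tested genes.

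**Figure D5:**
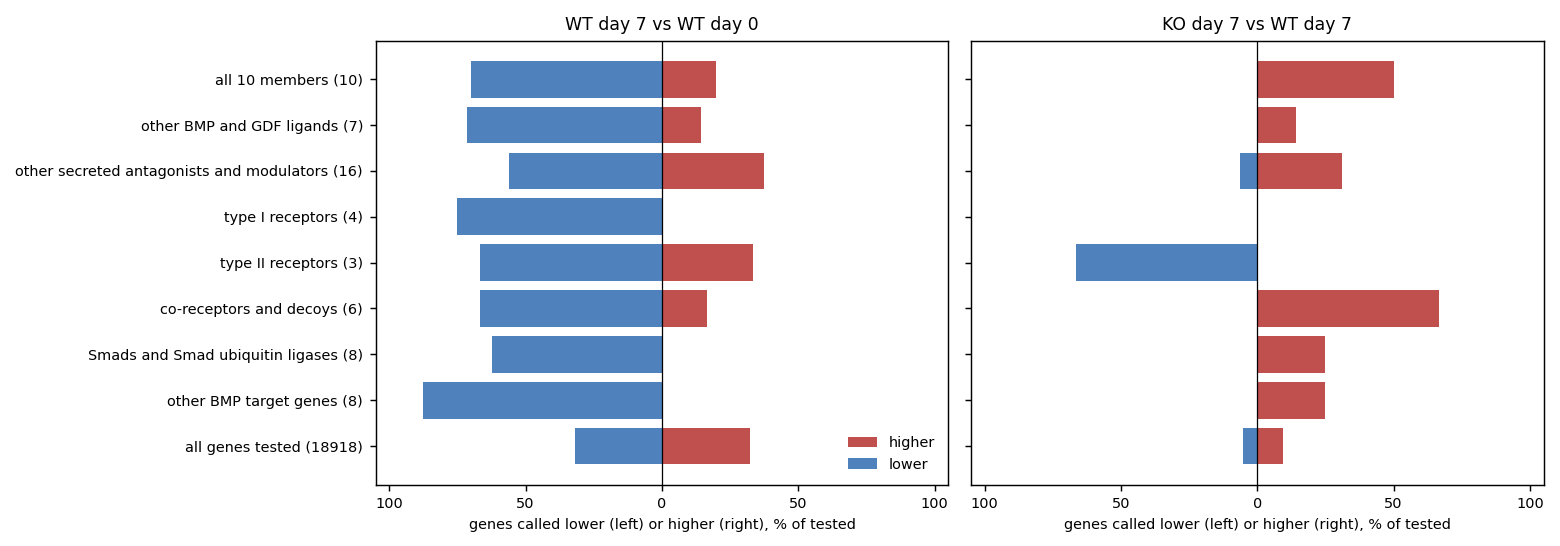
Share of tested genes called lower (left) or higher (right), in % of the genes tested, for the 10 genes, 7 groups of other BMP pathway genes and all tested genes, in WT day 7 against WT day 0 and in KO day 7 against WT day 7; numbers in brackets are genes tested. Target genes and ligands lie mostly to the left in the WT panel, and co-receptors mostly to the right in the KO panel.

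In KO day 7 against WT day 7 tendon, 14 of the 52 pathway genes were higher and 3 lower, with a median log2 change of 0.28, beside 9.39% of all tested genes higher, 5.42% lower and a median of -0.01. The count was 10 without WT day 7 replicate 2 and 11 without WT day 7 replicate 4 or KO day 7 replicate 4. Co-receptors of the repulsive guidance family, which help BMP ligands to bind, were higher: Rgma averaged 40.1 ± 4.36 CPM in KO and 21.4 ± 3.15 CPM in WT (log2 change 0.91, edgeR adjusted p = 0.0011), and Rgmb rose by 0.55. Endoglin (Eng) rose by 0.68. Of the 16 other secreted antagonists and modulators, 5 were higher and 1 was lower. Chrd averaged 48.0 ± 5.54 CPM in KO and 26.9 ± 2.35 CPM in WT (log2 change 0.83). Nbl1, another secreted antagonist, rose by 0.96 and Bmp1 of the same list by 0.38 (edgeR adjusted p = 0.013).

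Among the targets, Id4 averaged 7.78 ± 1.01 CPM in KO day 7 and 4.35 ± 0.41 CPM in WT day 7 tendon (log2 change 0.84, edgeR adjusted p = 0.0121), and Hey1 rose by 0.85. The other 6 target genes tested were not called. Smad6, itself a BMP target, averaged 11.2 ± 1.61 CPM in KO and 6.60 ± 1.62 CPM in WT (log2 change 0.77), and Smad9 rose by 0.68. Of the 3 type II receptors 2 were lower, beside 5.42% of all tested genes. Acvr2a had 37.4 ± 2.96 CPM in KO and 57.7 ± 3.76 CPM in WT (log2 change -0.63). Bmpr2 had a log2 change of -0.28 (edgeR adjusted p = 0.0477), with overlap between the KO and WT libraries. The third, Acvr2b, was not called (0.09, edgeR adjusted p = 0.838). None of the 4 type I receptors was called.

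At day 14, 1 of the 52 pathway genes was higher in KO than in WT, Crim1 (0.48, edgeR adjusted p = 0.045), and 1 was lower, Fstl3 (-0.73, edgeR adjusted p = 0.0164), beside 1.06% and 0.719% of all tested genes. Fstl3, which binds activins, averaged 4.85 ± 0.84 CPM in KO day 14 and 8.04 ± 0.69 CPM in WT day 14 tendon without overlap. The count was 8 without WT day 14 replicate 4. It was 0 without KO day 14 replicate 1 or 2 or WT day 14 replicate 2, and 1 without any 1 of WT day 0 replicates 1, 2, 3 and 4, WT day 7 replicates 2 and 4, KO day 7 replicates 2 and 4, WT day 14 replicates 1 and 3 and KO day 14 replicate 3. In KO day 14 against KO day 7 tendon, 12 of the 52 genes rose and none fell, beside 7.09% and 8.57% of all tested genes, and 7 were called without KO day 14 replicate 3. Those that rose include the type I receptors Bmpr1a (0.55) and Bmpr1b (0.79), Smad1 (0.63), Smad5 (0.30), Chrdl1 (1.11) and Id4 (0.75).

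The genes whose profile over the 20 libraries came closest to each of the 10 were found among 11161 genes by the root-mean-square difference of log2 CPM centred on each gene's mean. The nearest was Gstm1 to Bmp4 (0.17), Fbln1 to Bmp2 (0.24), Plpp3 to Gdf10 (0.29), Ston2 to both Bmp6 (0.23) and Gdf5 (0.34), and Hand2 to Id1 (0.23), with Id3 next for Id1 (0.30). These differences are small beside the spread of the genes themselves, whose SD over the libraries was 0.70 for Id1 to 1.24 for Bmp2. Gdf6 (Gpr153, 0.38), Nog (Tacc2, 0.53), Grem1 (F5, 0.60) and Gdf7 (Tac1, 0.77) had no neighbour as close in absolute terms. Their own SD was 0.93, 1.21, 1.14 and 1.72. Only genes with a mean of at least 5 CPM could be named as neighbours. All 20 libraries of the 5 groups enter this measure, so the points share libraries and group steps.

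The authors' deposited table of comparisons held 7 of the 10 genes, and all 28 of the 28 calls compared lay on the same side of the threshold as here. Their log2 changes differed by at most 0.0201. Gdf6, Gdf7 and Nog were not in it, so no call of these genes was compared. Both results come from the same libraries, and the authors' processing notes also name edgeR, so they are not independent.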

How the data were processed

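RNA was measured by sequencing in 20 plantaris tendon libraries, with groups and replicate numbers taken from the sample titles. Per the labels' protocols, total RNA was isolated by column (miRNeasy Micro) with a DNase step. The authors deposited raw counts per gene. Their processing notes name FastQC, STAR, the mm10 build and edgeR. No version, counting tool, annotation or strand setting is given in the sources. A second deposited table holds the authors' log2 fold changes, CPM and p-values, used here only for a check.

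Counts were filtered with edgeR's filterByExpr (18918 of 24885 genes kept), scaled by TMM and fitted with 1 mean per group over all 20 libraries, using the robust quasi-likelihood F test (edgeR 4.0.16, R 4.3.3). The threshold for a call was 0.05 on the p-value after Benjamini-Hochberg adjustment over all genes tested. SE is the absolute log2 change over the root of F. CPM were computed after TMM, and levels between genes are CPM per kilobase of merged exons (GENCODE vM21, GRCm38, the build of mm10). The pathway genes named are up to 3 per role group and comparison, by smallest p. The fit was tested on simulated data in which all genes had the same spread beyond counting noise. That test does not cover genes with a wider spread.

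The 10 genes, the pathway list and the marker lists were chosen with earlier results of these data known. Alternatives were RLE and upper-quartile scaling, other filters, DESeq2 1.42.0, limma-voom (limma 3.58.1), the compared groups alone, a replicate block, a muscle score covariate and each library left out. No pair of replicates was a duplicate: over 30 pairs within groups, the lowest chi-square per degree of freedom was 15.4.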

Additional observations from a re-analysis of the deposited data

Results flagged for a closer look

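In 3 of the 50 sets of 4 libraries (10 genes in 5 groups), 1 library stood apart from the other 3 by a gap above 0.829 of the whole range, the 95% critical value of Dixon's test. Chance alone gives about 1 such set in 20. Gdf5 had 2.99 CPM in KO day 14 replicate 2, below the other KO day 14 libraries at 5.02 to 5.33 CPM. Gdf10 had 51.6 CPM in KO day 7 replicate 3, above the other KO day 7 libraries at 24.5 to 26.7 CPM. Id1 had 30.8 CPM in WT day 14 replicate 4, above the other WT day 14 libraries at 26.4 to 26.5 CPM. No cause was tested for any of them.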

How the results depend on the processing

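RLE and upper-quartile scaling changed none of the counts of calls by over 1.5 times. With the muscle score as a covariate, all genes called were 5848 for WT day 7 against WT day 0, 2603 for WT day 14 against WT day 7 and 1012 for KO day 7 against WT day 7, and calls among the 10 genes were 1 for WT day 14 against WT day 7, 3 for KO day 7 against WT day 7 and 2 for KO day 14 against KO day 7. For WT day 14 against WT day 7, limma-voom called 2 of the 10 genes and the compared groups alone 3. For KO day 14 against WT day 14, DESeq2 called 3 of the 10 genes, 4 pathway genes and 759 genes in all. There the compared groups alone called 0 of the 10 genes, 0 pathway genes and 86 genes in all, no filter called 0 of the 10 and 1 pathway gene, and limma-voom called 0 of the 10. For KO day 14 against KO day 7, DESeq2 called 2 of the 10 genes and the filter of at least 1 CPM in 4 libraries called 0, since Gdf7 was then not tested. For the difference of KO effects, DESeq2 called 2 pathway genes and 190 genes in all.

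Replicate numbers were not treated as pairs in the main fit. Of 40 pairs of libraries with the same number, 14 had deviations correlated above 0.1 (median 0.0474, highest 0.272). The median over pairs with different numbers was -0.009, so a weak sharing by number is possible. With a replicate block, 0 of the 10 genes and 4 pathway genes were called for KO day 14 against WT day 14, where Gdf7 had a log2 change of 1.86 (adjusted p = 0.0653).

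With each library left out in turn, calls among the 10 genes ranged from 2 to 6 for WT day 14 against WT day 7, 0 to 2 for KO day 14 against WT day 14 and 0 to 2 for KO day 14 against KO day 7. Pathway calls ranged from 10 to 21 for KO day 7 against WT day 7, 0 to 8 for KO day 14 against WT day 14, 7 to 15 for KO day 14 against KO day 7 and 0 to 1 for the difference of KO effects. Calls over all genes ranged from 1440 to 3509 for KO day 7 against WT day 7, 152 to 1672 for KO day 14 against WT day 14, 1693 to 3361 for KO day 14 against KO day 7 and 0 to 11 for the difference of KO effects.

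The sign turned in 36 of the alternatives, in 14 of 70 values, none of them called. With the muscle covariate the log2 change was -1.41 for Gdf7 in WT day 7 against WT day 0, and -0.074 for Gdf6, 0.75 for Gdf10 and 0.17 for Bmp2 in WT day 14 against WT day 7. In the difference of KO effects it was -0.25 for Gdf10, -0.29 for Bmp2, -0.11 for Bmp4 and 0.12 for Nog, and -0.0085 for Bmp2 with limma-voom. Id1 in KO day 14 against WT day 14 had -0.066 with limma-voom and -0.020 with the replicate block. With single libraries left out, Gdf7 ranged from -0.24 to 0.68 in WT day 7 against WT day 0, and in WT day 14 against WT day 7 Gdf6 from -0.25 to 0.36 and Gdf10 from -0.48 to 0.10. In KO day 7 against WT day 7, Gdf10 ranged from -0.034 to 0.62 and Bmp4 from -0.026 to 0.23. In KO day 14 against WT day 14, Gdf6 ranged from -0.43 to 0.15 and Id1 from -0.13 to 0.20. Bmp2 ranged from -0.32 to 0.021 in KO day 14 against KO day 7, and in the difference of KO effects Gdf6 ranged from -0.18 to 0.43 and Bmp2 from -0.010 to 0.34. The causes were not tested. Gdf7 and Nog rest on the fewest counts.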
